A study of Homo sapiens with 8 samples.

Results

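RACK1 and the ribosome collision factors were followed in RNA-seq libraries of OVCAR3 cells, a human ovarian carcinoma line. The genes were chosen by name, as RACK1 with ZNF598, ASCC3, GIGYF2, EIF4E2, EDF1, PELO, HBS1L, LTN1 and NEMF, and their rows were found by mapping the transcript names in the count tables to gene symbols. They are 10 genes, of which 9 had a row among the 20165 rows of the tables. No transcript name in the tables mapped to ZNF598 (chr16:2047655-2059822, minus strand, GRCh37) with the annotation used here, and its mRNA was not analysed here.

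The series holds 8 libraries in 4 groups of 2, each made from rRNA-depleted total RNA of clarified cell lysate. For siControl and siTARG1, OVCAR3 cells received 30 nM of a control siRNA or of an siRNA against OARD1, the gene of the ADP-ribosyl hydrolase TARG1, and were harvested at 48 h. For RACK1-WT and RACK1-Mut, OVCAR3 cells that carried a pTRIPZ vector with an shRNA against RACK1 and a pInducer20 vector with a RACK1 cDNA bearing an HA tag at its C terminus received 1 µg/ml doxycycline (Dox) for 48 h, so that endogenous RACK1 was knocked down while wild-type RACK1, or RACK1 with the substitutions D144N, E145Q and D203N at its sites of mono-ADP-ribosylation (MARylation), was expressed. Both vectors were introduced by lentivirus with drug selection, all RACK1-WT and RACK1-Mut libraries carry the knockdown, and none of these 8 libraries holds the knockdown without a cDNA. Whether the lines are clones or pools is not given in the sources used here. The study's methods say that its sequencing experiments used independent biological samples, while the labels number the libraries of a group without naming separate cultures. The tests below measure the spread between these libraries.

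Exon counts totalled 30989049 to 42668783 per library, and libraries of a group correlated at r of 0.9954 to 0.9964 across genes. All 12 ovarian carcinoma markers looked up, among them PAX8 and MUC16, were above 1 CPM, the count scaled to a common library size, in every library, with summed levels of 3210 to 5500 CPM, lowest in the siTARG1 libraries. Summed levels of the fibroblast, immune and endothelial markers were 2.7 to 9.31 CPM, and CD3E was at 0. OARD1 was at 48.53 and 52.02 CPM in siControl and at 3.108 and 3.977 CPM in siTARG1, a log2 fold change of -3.83 (SE 0.121, adjusted p = 1.2e-10), so the siRNA target was low in the libraries labelled with it.

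When a ribosome slows on an mRNA, the ribosome behind can run into it, and the joint surface of the collided pair is what the cell's ribosome quality control reads. RACK1 sits on the head of the small subunit at that surface, ZNF598 marks small-subunit proteins there with ubiquitin, and ASCC3 pulls the leading ribosome apart. EDF1 with GIGYF2 and EIF4E2 represses further initiation on the mRNA, PELO with HBS1L rescues ribosomes held at the end of an mRNA, and NEMF with LTN1 marks the unfinished protein left on the large subunit for degradation.

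The neighbouring residues of D144N and E145Q are shown in the reference coding sequence, because reads of RACK1-WT and RACK1-Mut transcripts can differ only at the substituted codons. Positions are counted from 1 at the initiator methionine of the 317-residue protein that the counted transcript encodes in 8 coding exons. The window is read 5′ to 3′ on the minus strand of GRCh37 chromosome 5, with the substituted codons in capitals. The codons of D144N and E145Q lie in exon 4 (chr5:180666577-180666582), and the window was read from the spliced transcript, since it crosses an exon junction.
RACK1 codons 144 and 145: tacactgtccagGATGAGagccactcagag
The reads were aligned to the reference transcriptome, so reads of the RACK1-Mut cDNA over the substituted codons carry mismatches. Their part in the RACK1-Mut counts was not tested.

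RACK1 was by far the most abundant of these mRNAs in every group. Per kilobase of exon, which is the scale for comparing levels between genes, RACK1 averaged 3257 ± 53.15 CPM per kb (SD, n = 2) in siControl and ranked 9th of 14024 genes tested. It ranked 10th in siTARG1, 33rd in RACK1-WT and 54th in RACK1-Mut. EDF1 came next in every group, at 302.7 ± 21.76 CPM per kb (SD, n = 2) in siControl, followed by EIF4E2 at 55.85 ± 1.857 (SD, n = 2). The other 6 genes lay between 12.96 and 22.81 CPM per kb in siControl, in the order LTN1, NEMF, GIGYF2, HBS1L, ASCC3 and PELO, in which the libraries of HBS1L and ASCC3 overlapped. In both groups of the RACK1 lines, HBS1L and LTN1 shared the fourth place with overlapping libraries, and GIGYF2 was the lowest of the 9.

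**Figure D1:**
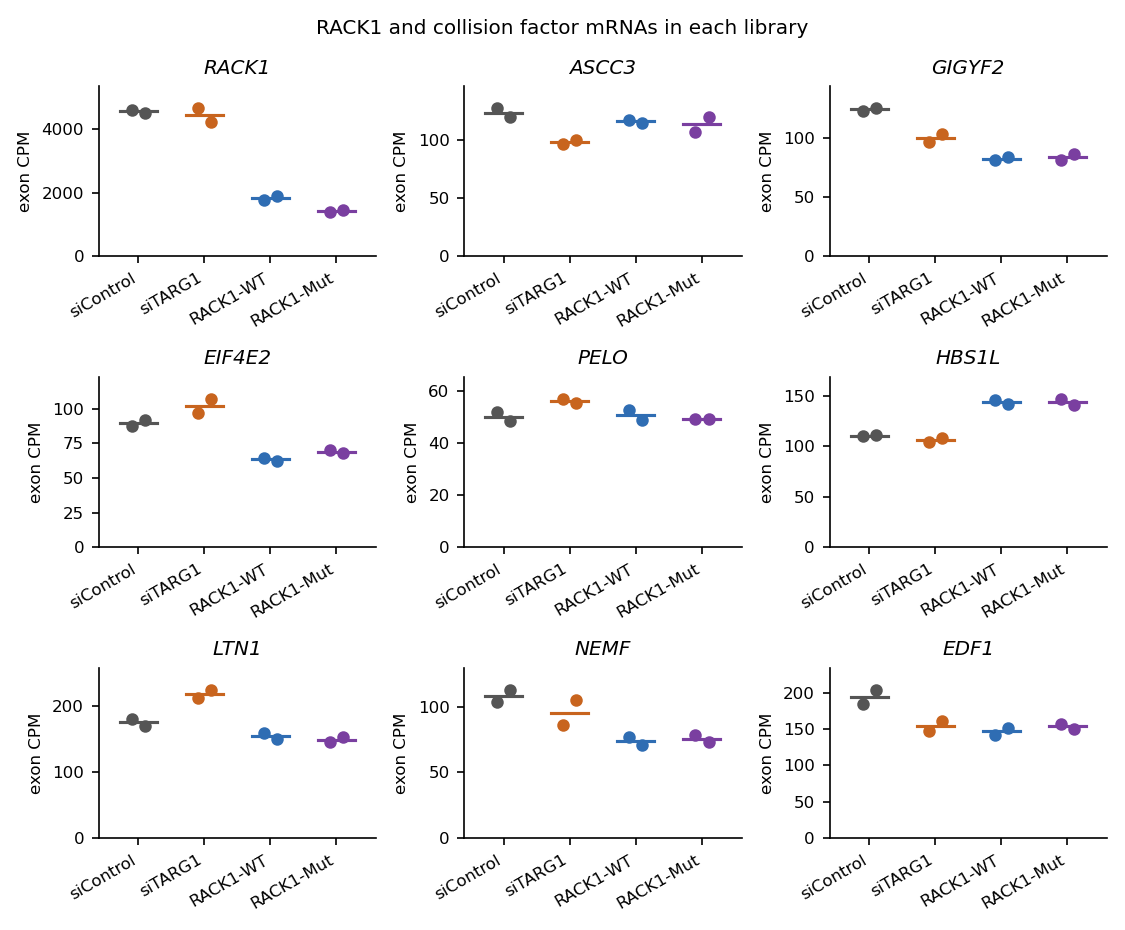
Exon CPM of each gene in the 8 libraries (vertical axis from 0, in CPM; horizontal axis, the 4 groups); points are libraries and bars are group means. RACK1 falls from 4569 CPM in siControl to 1830 CPM in RACK1-WT, while HBS1L is the only gene of the 9 with a called increase between these groups.

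The first question was how much RACK1 mRNA each group held, and from which source. RACK1 (chr5:180663897-180675096, minus strand, 1403 exon bases in the counted transcript) had 4622 and 4516 exon CPM in siControl and 4664 and 4241 CPM in siTARG1. It had 1762 and 1898 CPM in RACK1-WT and 1397 and 1454 CPM in RACK1-Mut. The siRNA groups overlapped, both RACK1 lines lay below them, and RACK1-Mut lay below RACK1-WT. In bulk RNA, less RACK1 mRNA per cell and fewer cells that express it cannot be told apart. Reads from 3 named RACK1 pseudogenes in the annotation could be shared with this row, and how the counting split them was not tested.

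Counting the coding sequence (CDS) apart from the untranslated regions (UTRs) bears on the source. By the cloning primers in the study's methods, the cDNA runs from the start codon to the HA tag, so the cDNA itself holds neither UTR, and UTR reads were taken as endogenous RACK1, apart from any shared with the pseudogenes. Over the 40 bases of the 3′UTR, RACK1 had 293.7 and 344.9 CPM in siControl, 290.6 and 320.5 CPM in siTARG1, 18.99 and 15.7 CPM in RACK1-WT, and 18.87 and 15.83 CPM in RACK1-Mut. The RACK1 lines were thus at 5.43% of the siControl mean in RACK1-WT and at 5.44% in RACK1-Mut, and their libraries overlapped. Over the 409 bases of the 5′UTR, which held only 26 to 40 counts per library in the RACK1 lines, the lines were at 9.71% and 9.47% of siControl. The 5′UTR was thinly covered in siControl too, at 22.81 CPM per kb, against 4445 over the CDS and 7982 over the 3′UTR.

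The CDS behaved otherwise. Over its 954 bases RACK1 had 4317 and 4164 CPM in siControl, 4363 and 3912 CPM in siTARG1, 1743 and 1881 CPM in RACK1-WT, and 1378 and 1438 CPM in RACK1-Mut. The RACK1 lines therefore kept 42.7% and 33.2% of the siControl CDS level, far more than of either UTR. At the ratio of 3′UTR to CDS seen in siControl, the 3′UTR level of RACK1-WT would go with 230.3 CPM of CDS, or 12.7% of the 1812 CPM found, and that of RACK1-Mut with 230.5 CPM, or 16.4% of 1408 CPM. Taken from the thinly covered 5′UTR, these shares were 22.7% and 28.5%. The calculation holds if knockdown left the ratio of UTR to CDS in the remaining endogenous mRNA as it was and if reads shared with pseudogenes did not shift it, neither of which was tested. Above that part, 1581 CPM of CDS in RACK1-WT and 1177 CPM in RACK1-Mut were left for the cDNA by the 3′UTR, which is 37.3% and 27.8% of the RACK1 CDS level of siControl. By the 5′UTR, 1400 CPM and 1006 CPM were left, or 33.0% and 23.7% of that level.

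**Figure D2:**
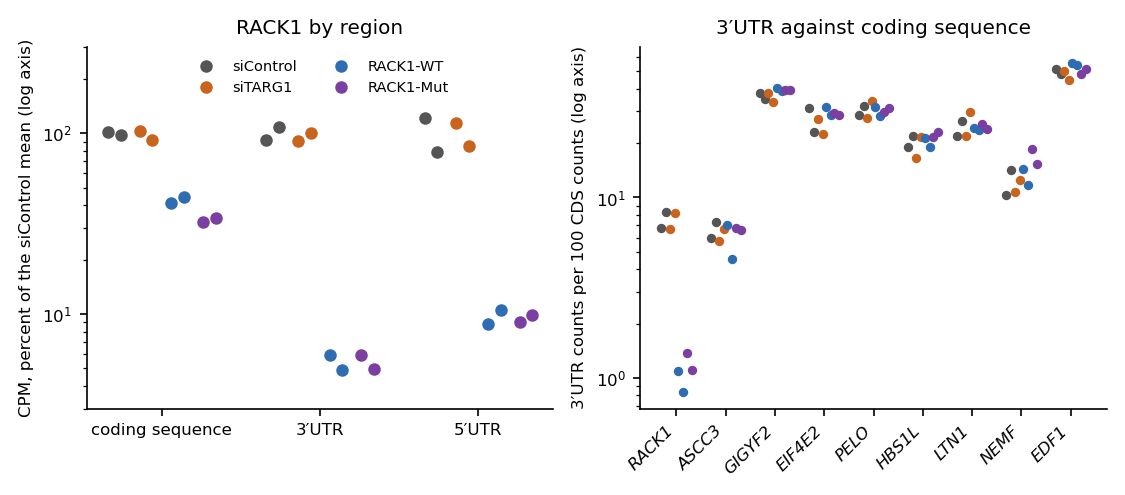
Left, RACK1 CPM over the coding sequence, 3′UTR and 5′UTR as percent of the siControl mean (log axis), with 1 point per library. Right, 3′UTR counts per 100 CDS counts (log axis) for the 9 genes in each library, where RACK1 in the RACK1-WT and RACK1-Mut libraries lies at 0.8348 to 1.37 and in the siRNA libraries at 6.66 to 8.283.

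The ratio was tested for every gene with enough counts in both regions. RACK1 had 6.803 and 8.283 counts over the 3′UTR per 100 over the CDS in siControl and 1.09 and 0.8348 in RACK1-WT, and the groups did not overlap. The log2 change of the ratio was -3.04 (SE 0.159, adjusted p = 6.6e-05), which was the 18th lowest of 12047 genes. Over all genes 0.432% were called in this test, and 0.0996% were called lower. With the 5′UTR in place of the 3′UTR the change was -2.08 (SE 0.236, adjusted p = 2e-04), where 0.147% of all genes were called. None of the other 8 genes, whose cDNA was not introduced, was called, with changes of -0.27 for ASCC3 to 0.08 for EIF4E2. Between siTARG1 and siControl the RACK1 ratio changed by -0.03 (SE 0.151, adjusted p = 1) and none of the 9 was called, where 0.0581% of all genes were. Between RACK1-Mut and RACK1-WT it changed by 0.33 (SE 0.161, unadjusted p = 0.067, adjusted p = 1), and no gene of the 12047 was called. In the 4 libraries of the RACK1 lines the ratios were 1.09, 0.8348, 1.37 and 1.101, and both RACK1-Mut values lay above both RACK1-WT values by less than this test could call.

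Knockdown of TARG1 went with modest changes of the collision factors and none called for RACK1. Of the 9 genes, 5 were called at an adjusted p under 0.05, 2 higher and 3 lower, where 46.6% of all 14024 genes tested were called, 23.5% higher and 23.1% lower. The share of called genes among the 9 was near that background. Their median log2 fold change was -0.05, beside 0.01 over all genes. For RACK1 itself the log2 fold change was -0.04 (SE 0.076, adjusted p = 0.72), with an interval of -0.2 to 0.13.

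Of the factor that splits collided ribosomes, ASCC3 (chr6:100956070-101329248, minus strand), the siControl libraries had 127.3 and 119.4 CPM and the siTARG1 libraries 96.4 and 99.95 CPM. Both siTARG1 values were lower, and the change of -0.33 (SE 0.072, adjusted p = 0.0019) is a fold of 0.796.

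The repressors of initiation moved apart. GIGYF2 (chr2:233562009-233725315, plus strand), the scaffold that holds EIF4E2, fell from 122.8 and 125 CPM to 96.7 and 103.4 CPM, by 0.31 on the log2 scale (SE 0.068, adjusted p = 0.002). EDF1 (chr9:139756571-139760760, minus strand), which binds collided ribosomes and brings in that pair, fell from 183.8 and 203.5 CPM to 147.3 and 161.6 CPM, by 0.33 (SE 0.075, adjusted p = 0.0028). EIF4E2 (chr2:233415369-233448354, plus strand), a cap-binding protein that does not start translation, went from 87.47 and 91.68 CPM to 97.14 and 107.1 CPM, a change of 0.19 (SE 0.072, adjusted p = 0.043). The siControl and siTARG1 libraries did not overlap for any of these genes, as for 70% of all genes tested. GIGYF2 overlaps SNORC on the same strand and EIF4E2 has 2 named pseudogenes, so a part of their reads could be shared. The call for EIF4E2 was lost with DESeq2 (adjusted p = 0.054), with no filter on low counts (adjusted p = 0.066), in a fit of these 4 libraries alone (adjusted p = 0.1), with 3′UTR counts (0.07, adjusted p = 0.71) and without siTARG1 replicate 2 (0.11, adjusted p = 0.28), siControl replicate 1 (0.17, adjusted p = 0.19) or siControl replicate 2 (0.23, adjusted p = 0.068).

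Of the genes that deal with the unfinished protein, LTN1 (chr21:30300466-30365277, minus strand), the ubiquitin ligase, rose from 181 and 169.6 CPM to 212.3 and 224 CPM, by 0.315 (SE 0.069, adjusted p = 0.0019). NEMF (chr14:50248801-50319539, minus strand), which recruits LTN1, had 103.5 and 112.7 CPM in siControl and 85.78 and 105.3 CPM in siTARG1. Its groups overlapped, and its change of -0.18 (SE 0.093, adjusted p = 0.13) was not called. Without siTARG1 replicate 2 the change of NEMF was -0.34 and was called (adjusted p = 0.004).

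The rescue pair gave no call. PELO (chr5:52083750-52099878, plus strand) had 51.79 and 48.6 CPM in siControl and 56.9 and 55.34 CPM in siTARG1, a change of 0.16 (SE 0.073, adjusted p = 0.089). It lies within ITGA1 on the same strand, so a part of its reads could be shared. HBS1L (chr6:135281516-135424194, minus strand), its GTPase partner, had 110.3 and 111.1 CPM in siControl and 104.6 and 108.7 CPM in siTARG1, a change of -0.05 (SE 0.064, adjusted p = 0.53) with an interval of -0.19 to 0.09.

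**Figure D3:**
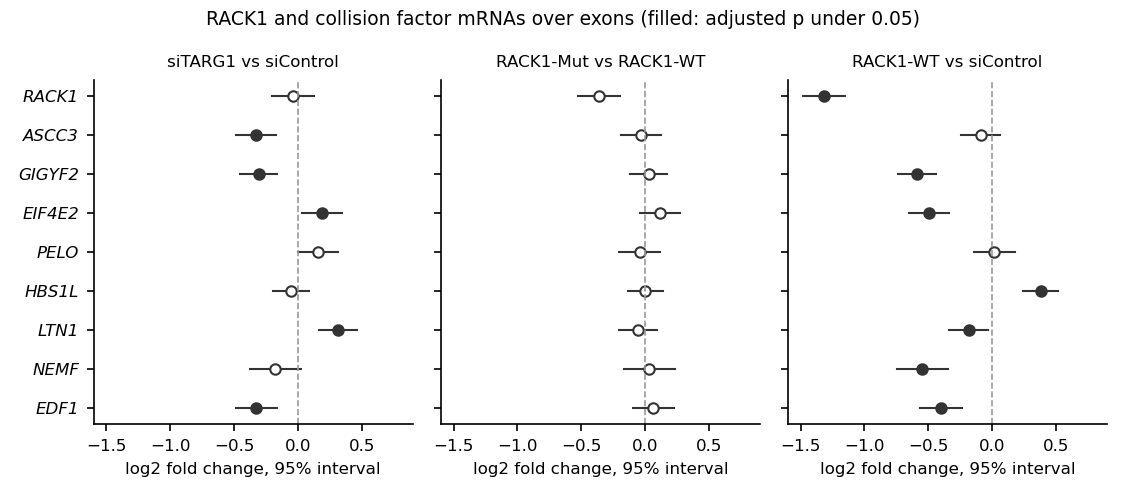
Log2 fold change over exons with its 95% interval for the 9 genes in the 3 comparisons; filled points passed an adjusted p of 0.05. After TARG1 knockdown 5 are filled, between RACK1-Mut and RACK1-WT none of the 9, and between RACK1-WT and siControl 7, of which RACK1 at -1.32 lies farthest from 0; on the unscaled RPKM values described in the text ASCC3, LTN1 and EDF1 would lie above 0 in the last panel and RACK1 and HBS1L above 0 in the first.

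Loss of the MARylation sites of RACK1 was compared within the RACK1 lines. Each group is a line of its own, so the substitutions cannot be told apart from other differences between the lines, such as the level of RACK1. The difference over RACK1 itself stood out from that of the other factors: RACK1 had 1762 and 1898 exon CPM in RACK1-WT against 1397 and 1454 CPM in RACK1-Mut, a ratio of group means of 0.779. These libraries did not overlap, as for 37.8% of all genes tested, and the log2 fold change was -0.36 (SE 0.076, unadjusted p = 0.00033, adjusted p = 0.3), with an interval of -0.52 to -0.2. By size, 7% of all genes changed by more. In the CDS, RACK1-Mut stood at 0.777 times RACK1-WT, against 1 times in the 3′UTR and 0.975 times in the 5′UTR, so the difference lay in the CDS counts. The RACK1 difference was called with DESeq2 (adjusted p = 0.0041), with no filter on low counts (adjusted p = 0.03) and in a fit of these 4 libraries alone (adjusted p = 0.022), with the log2 fold change at -0.36 in each of these fits.

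Of the other 8 genes none was called between RACK1-Mut and RACK1-WT. With edgeR, 0 of the 9 genes passed the adjusted threshold and RACK1 alone had an unadjusted p under 0.05, where 0.00713% of all genes were called and 687 of 14024 had an unadjusted p under 0.05. DESeq2 called 1 of the 9, again RACK1. EIF4E2 had 64.61 and 62.5 CPM in RACK1-WT and 70.29 and 67.81 CPM in RACK1-Mut, without overlap, a change of 0.12 (SE 0.073, adjusted p = 1). The 7 others had overlapping libraries and changes of -0.05 for LTN1 to 0.07 for EDF1. Their intervals were at the widest -0.17 to 0.24, for NEMF, and at the narrowest -0.14 to 0.14, for HBS1L. These intervals bound the estimates and are not limits of detection. A change beyond them could also go uncalled in this test, as that of RACK1 did at -0.36 (adjusted p = 0.3).

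RACK1-WT against siControl asks how the line with replaced RACK1 differs from cells that were only transfected. The cell line with its vectors, Dox and transfection all differ between these groups and cannot be told apart. It also shares its siControl libraries with the TARG1 comparison and its RACK1-WT libraries with the mutant comparison. In this comparison 7 of the 9 genes were called, 1 higher and 6 lower, where 63.3% of all genes were called, 31.9% higher and 31.4% lower. The median log2 fold change of the 9 was -0.4, beside -0.02 over all genes. The deposited RPKM values are scaled to another total: on them the median of all genes moved by 0.41 between these groups and by 0.12 after TARG1 knockdown. Changes below are given on the TMM scale, and relative to that median the RPKM values had the same direction for all 9 genes in both comparisons. Both scales come from the same counts, so this is not separate evidence for the directions.

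RACK1 fell by 1.32 over exons (SE 0.077, adjusted p = 4e-09), to a fold of 0.4 of siControl, the largest change of the 9 genes. Over the CDS it fell by 1.19 (SE 0.079, adjusted p = 5.8e-09) and over the 3′UTR by 4.24 (SE 0.131, adjusted p = 6.7e-08).

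GIGYF2 fell to 81.24 and 83.54 CPM, by 0.59 (SE 0.069, adjusted p = 4.8e-06), and EIF4E2 fell to 64.61 and 62.5 CPM, by 0.49 (SE 0.073, adjusted p = 4.4e-05). EDF1 fell to 141.8 and 151.6 CPM, by 0.4 (SE 0.076, adjusted p = 0.00037), a direction that turned to 0.03 on the RPKM values without correction for the shift of the median. These 3 genes act together in the repression of initiation, and in all of them both RACK1-WT libraries lay below both siControl libraries, as the groups were apart for 83.4% of all genes.

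NEMF fell to 76.68 and 71.21 CPM, by 0.55 (SE 0.094, adjusted p = 0.00017). LTN1 was at 159.1 and 149.4 CPM, a log2 fold change of -0.19 (SE 0.069, adjusted p = 0.031) that turned to 0.24 on the uncorrected RPKM values. Its call was lost with CDS counts (-0.15, adjusted p = 0.088) and with 3′UTR counts (-0.236, adjusted p = 0.15). The call was lost too without siControl replicate 1 (-0.13), RACK1-WT replicate 1 (-0.23) or RACK1-WT replicate 2 (-0.14).

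HBS1L was the gene that went the other way, rising to 146.1 and 142.1 CPM by 0.38 (SE 0.064, adjusted p = 0.00015). Its partner PELO had 52.82 and 48.88 CPM, overlapping with siControl, with a change of 0.02 (SE 0.074, adjusted p = 0.84). ASCC3 had 117.3 and 114.4 CPM and a change of -0.09 (SE 0.072, adjusted p = 0.29), which was 0.34 on the uncorrected RPKM values.

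The effect of TARG1 knockdown and the change from RACK1-WT to RACK1-Mut were then compared directly, as the difference of both log2 fold changes. Of the 9 genes, 5 were called, 2 with a positive and 3 with a negative difference, where 32.4% of all genes were, 16.1% positive and 16.3% negative. LTN1 differed by 0.37 (SE 0.098, adjusted p = 0.011) and RACK1 by 0.32 (SE 0.107, adjusted p = 0.033), with the siTARG1 effect the higher. EDF1 differed by -0.39 (SE 0.107, adjusted p = 0.012), GIGYF2 by -0.34 (SE 0.097, adjusted p = 0.016) and ASCC3 by -0.3 (SE 0.102, adjusted p = 0.039), with the siTARG1 effect the lower. For RACK1 the effects set against each other were -0.04 with siTARG1 and -0.36 with RACK1-Mut, and for EDF1 they were -0.33 and 0.07. In the edgeR fit of CDS counts, where 30.3% of all genes were called, ASCC3 lost its call (-0.275, adjusted p = 0.053). With 3′UTR counts none of the 9 was called, where 2050 of 12520 genes were. There RACK1 differed by -0.05 (adjusted p = 0.88) and LTN1 by 0.42 (adjusted p = 0.14). EDF1 differed by -0.34 (adjusted p = 0.081), GIGYF2 by -0.34 (adjusted p = 0.11) and ASCC3 by -0.55 (adjusted p = 0.2). The count depended on single libraries, and the share called over all genes moved with them too. Leaving out 1 library, the difference was 0.318 to 0.425 for LTN1 and 0.253 to 0.38 for RACK1. It was -0.469 to -0.312 for EDF1, -0.395 to -0.287 for GIGYF2 and -0.374 to -0.227 for ASCC3.

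A further 43 genes of ribosome quality control were looked up, and 40 could be tested. Among those not tested, RPS10 shares a row with NUDT3 and GSPT2 did not pass the filter on low counts. After TARG1 knockdown 17 of the 40 were called, 10 higher and 7 lower, with a median of 0.01, where 46.6% of all genes were called, 23.5% higher and 23.1% lower, so the share was no higher than that background. Without siControl replicate 1 fewer of the 40 were called, and the share called over all genes was lower too. In the kinase arm, EIF2AK4 (GCN2), which phosphorylates eIF2 when ribosomes stall, rose from 75.27 and 76.18 CPM to 127.2 and 123.9 CPM, by 0.73 (SE 0.067, adjusted p = 9.7e-07). IMPACT, an inhibitor of GCN2 activation, rose by 0.56 (SE 0.087, adjusted p = 0.00011), GCN1 was not called, and MAP3K20 (ZAK), the kinase that signals collisions to the stress pathways, fell by 0.37 (SE 0.081, adjusted p = 0.002).

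In the group for mRNA silencing and decay, 6 of 7 were called after TARG1 knockdown, 2 higher and 4 lower, where 46.6% of all genes were called. GIGYF1, the paralog of GIGYF2, rose from 53.15 and 49.32 CPM to 82.63 and 73.09 CPM, by 0.6 (SE 0.08, adjusted p = 3.2e-05), while GIGYF2 fell. DDX6, a helicase of translational repression, fell from 355.5 and 377.3 CPM to 233.5 and 264.5 CPM, by 0.56 (SE 0.074, adjusted p = 3.3e-05). The subunits of the SKI complex, which feeds mRNA to the exosome, were all called lower: WDR61 by 0.71 (SE 0.073, adjusted p = 2.9e-06), SKIV2L by 0.57 (SE 0.079, adjusted p = 4.7e-05) and TTC37 by 0.18 (SE 0.07, adjusted p = 0.044, or 0.051 with DESeq2). In the remaining groups 0 of 3 partners of ASCC3, 3 of 7 factors of nascent chain release, 2 of 9 ubiquitin ligases and deubiquitinases of the small subunit, 2 of 5 release and rescue factors and 1 of 5 ribosomal proteins were called, beside the same 46.6% over all genes.

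Between RACK1-Mut and RACK1-WT 0 of the 40 were called by edgeR, with 0 at an unadjusted p under 0.05 and a median of -0.002. DESeq2 also called 0 of the 40.

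Between RACK1-WT and siControl 26 of the 40 were called, 7 higher and 19 lower, with a median of -0.2 beside -0.02 over all genes. Of all genes 63.3% were called, 31.9% higher and 31.4% lower, so the share called was near the background. On the RPKM values without correction for the shift of the median, 8 of the 19 lower genes lay above siControl. OTUD3, a deubiquitinase that acts on small-subunit proteins, rose from 12.77 and 14.23 CPM to 41.52 and 35.43 CPM, by 1.51 (SE 0.101, adjusted p = 1.6e-08). IMPACT rose by 0.71 (SE 0.087, adjusted p = 7.5e-06) and RNF14, a ubiquitin ligase of stalled ribosomes, by 0.66 (SE 0.076, adjusted p = 3.8e-06). RNF25, the ligase that acts with RNF14, fell from 52.97 and 50.01 CPM to 26.69 and 22.82 CPM, by 1.06 (SE 0.087, adjusted p = 1.4e-07). DDX6 fell by 1.05 (SE 0.075, adjusted p = 3.2e-08) and GIGYF1 by 0.72 (SE 0.083, adjusted p = 4.6e-06). The 3 tested partners of ASCC3 were called, as were 63.3% of all genes: ASCC2 at -0.52 (adjusted p = 6.4e-05), ASCC1 at -0.27 (adjusted p = 0.012, and 0.16 on the uncorrected RPKM values) and TRIP4 at 0.26 (adjusted p = 0.029, or 0.056 with DESeq2).

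**Figure D4:**
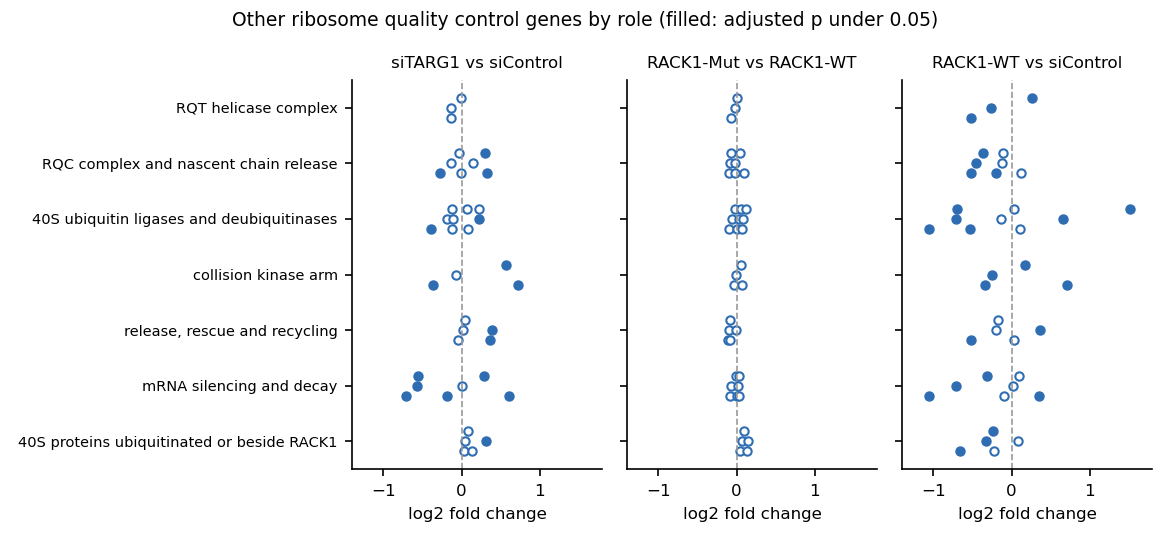
Log2 fold change over exons of the 40 tested quality control genes beside the 9, grouped by role, in the 3 comparisons; filled points passed an adjusted p of 0.05. After TARG1 knockdown 17 are filled, between RACK1-Mut and RACK1-WT 0, and between RACK1-WT and siControl 26, from RNF25 at -1.06 to OTUD3 at 1.51.

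The genes whose log2 CPM ran most like that of RACK1 were sought among 6313 genes with a mean log2 CPM of at least 5. They were a row joining IRF9 with RNF31 (Pearson r = 0.9971 over 8 libraries), IFI6 (0.9967), ATP6V0D1 (0.9961), EXOC2 (0.9959) and IRF7 (0.9954). The siRNA libraries and those of the RACK1 lines come from different experiments, and how much of these values comes from that split was not tested. IFI6, for example, averaged 442.1 CPM in siControl, 468.8 in siTARG1, 167.9 in RACK1-WT and 129.5 in RACK1-Mut. Of the collision factors EIF4E2 ran most like RACK1 (0.893, rank 1112 of 6313) and HBS1L most unlike it (-0.979, rank 6237).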

How the data were processed

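Libraries were strand-specific, from rRNA-depleted total RNA of the lysates that also went into ribosome profiling. As the submitters' processing notes and the study's methods describe, the authors removed rRNA reads with Bowtie 1.1.2, aligned the rest to a transcriptome of Gencode release 24 on GRCh37 with TopHat2 2.1.1, and used Plastid to deposit estimated counts of alignments of 25 to 51 bases per gene over exons, CDS and UTRs. The deposited RPKM values were made by the authors from these counts and region lengths, and they served only as an alternative scale. Reads that map to several transcripts can be shared between rows.

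Transcript names were matched to symbols with Gencode release 44 lifted to GRCh37, in which 94.7% of 36595 names were found. Of 20165 rows, 553 (1.19% of counts) matched no gene and 452 (4.15%) joined several genes. WDR61, SKIV2L and TTC37 were matched by their newer symbols. Counts were rounded. The main test was edgeR 4.0.16 (R 4.3.3) with its quasi-likelihood test, TMM factors, filterByExpr, all 8 libraries as 4 groups (4 residual degrees of freedom) and Benjamini-Hochberg adjustment over 14024 genes, with a threshold of 0.05. CPM use TMM library sizes of the exon counts. The 3′UTR to CDS ratio was tested with both regions of each library in 1 fit, a term per library and TMM within each region. Intervals are 95% intervals of the fit. DESeq2 1.42.0, the tool the methods name, RLE factors, other filters, fewer libraries, CDS or 3′UTR counts and a replicate block were alternatives, and the use of 3′UTR counts alone was chosen after seeing the data. The test code was checked on simulated data. The figures were drawn with matplotlib.

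The genes and the list of quality control genes were chosen with earlier results of these data known. The genes named are the 10 chosen, OARD1, up to 3 of the highest and 3 of the lowest called list genes per comparison, and the 5 most like RACK1. MAP3K20, GCN1, TTC37 and the ASCC3 partners were named after their values were seen. Same-numbered libraries deviated together at r of 0.256 in the siRNA experiment and 0.028 in the RACK1 lines, so the numbers were not taken as pairs.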

Additional observations from a re-analysis of the deposited data

Results flagged for a closer look

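For 5 of the 9 genes the effect of TARG1 knockdown and the change from RACK1-WT to RACK1-Mut differed by the test of the difference itself (edgeR's quasi-likelihood test, Benjamini-Hochberg over all genes). Over all genes 32.4% were called in that test, and the count among the 9 depended on single libraries, as given above. With 3′UTR counts none of the 9 was called, and RACK1 differed by -0.05. The differences of log2 fold changes, siTARG1 effect minus RACK1-Mut effect, were 0.37 for LTN1 (adjusted p = 0.011), 0.32 for RACK1 (adjusted p = 0.033), -0.39 for EDF1 (adjusted p = 0.012), -0.34 for GIGYF2 (adjusted p = 0.016) and -0.3 for ASCC3 (adjusted p = 0.039). Both experiments contribute 2 libraries per group, and they differ in cell line, Dox and transfection, which cannot be told apart from the effects compared.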

How the results depend on the processing

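Each group holds 2 libraries, and this limits every call. Between RACK1-Mut and RACK1-WT, 1 of the 9 genes, RACK1, was called with DESeq2 (log2 fold change -0.36), with no filter (-0.356) and with only the 4 libraries (-0.363), against 0 in the edgeR fit of all libraries. DESeq2 called 17 genes in all in that comparison, the fit with no filter 15, the fit of 4 libraries 49 and the main test 1. After TARG1 knockdown EIF4E2 lost its call under those 3 alternatives, which left 4 of the 9 called. Of all genes, 42.4% were called with DESeq2, 38.2% with no filter and 42.3% with only the 4 libraries. Counting the 3′UTR alone, 3 of the 9 were called after TARG1 knockdown, where 28.8% of all genes were. In RACK1-WT against siControl 4 were called, where 46.4% of all genes were. After TARG1 knockdown the calls lost there were those of ASCC3 (-0.416, adjusted p = 0.13) and EIF4E2. In RACK1-WT against siControl they were those of HBS1L (0.328, adjusted p = 0.054), NEMF (-0.495, adjusted p = 0.088) and LTN1. Leaving out 1 library gave 1 to 6 called in the difference of effects, 11 to 16 of the quality control list after TARG1 knockdown, and a RACK1 change after TARG1 knockdown of -0.107 to 0.021. The replicate block gave 5, 0, 7 and 5 called genes of the 9 in the 4 tests and changed no call of the 9. Over all genes it called 46.8%, 0.0214%, 63.5% and 32.7% in these tests. As the libraries share only a number, no pairing is read from the block. Among the 9 genes, directions turned only for changes that were not called, with 2 kinds of exception. The difference of effects for RACK1, called on exon counts, turned to -0.05 with 3′UTR counts. EDF1 and LTN1 turned on the uncorrected RPKM values given above, where 8 called genes of the quality control list turned too. Between RACK1-Mut and RACK1-WT the uncalled changes that turned were HBS1L (0 with the 4 libraries, -0.011 with CDS counts, -0.024 to 0.029 leaving out 1 library), NEMF (-0.005 with CDS counts, -0.02 to 0.087), ASCC3 (0.138 with 3′UTR counts, -0.112 to 0.044), GIGYF2 (-0.001, -0.015 to 0.071), EDF1 (-0.039 with 3′UTR counts) and PELO (-0.097 to 0.012). In RACK1-WT against siControl PELO was at -0.042 with 3′UTR counts and -0.039 to 0.073 leaving out 1 library, and the difference of effects for EIF4E2 was -0.011 to 0.14. The RACK1 ratio to CDS after TARG1 knockdown was 0.047 with the 5′UTR and -0.16 to 0.085 leaving out 1 library. On the authors' RPKM, RACK1 stood at 57.38% and 45.83% of siControl over the CDS in RACK1-WT and RACK1-Mut, 7.398% and 7.555% over the 3′UTR and 12.81% and 12.87% over the 5′UTR, since those values are scaled to another total. The RACK1 3′UTR to CDS change in RACK1-WT against siControl was called under every alternative, at -3.189 to -2.896 leaving out 1 library. The cause of the other changes was not tested.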
